A study of Mus musculus with 94 samples.

Results

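The effect of lamivudine on L1 expression was examined in the hippocampus of trisomic mice, by comparing Ts65Dn (TS) mice treated with lamivudine (TS-t) with non-treated TS mice (TS-nt). The samples were chosen by their labels and comprised 21 of the 94 libraries of the series, 13 of TS-t and 8 of TS-nt mice. All were male Ts65Dn mice, B6EiC4Sn.BLiA-Ts(1716)65Dn/DnJ crossed with B6C3F1/OlaHsd. The labels give an age of 3 to 4 months, without the stage of the experiment to which it refers. Ts65Dn is a model of Down syndrome that carries an extra copy of a distal segment of chromosome 16 joined to the centromeric end of chromosome 17, so that it is trisomic for part and not all of the mouse genes orthologous to human chromosome 21. TS-t mice received lamivudine at 3 mg/kg in the drinking water and TS-nt mice received water without it. Treatment went on for months, and tissue was taken after behavioral tests at its end. The age in the labels is therefore not taken here as the age at dissection. The fit also held the 8 non-treated and 17 treated wild-type (WT-nt and WT-t) hippocampus libraries, and the treatment effect was set beside that in WT hippocampus and in the cortex of these 21 TS mice and 1 further TS-nt mouse.

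L1 retrotransposons are copied through an RNA that is reverse transcribed and inserted elsewhere in the genome. In the mouse, the L1Md_T, L1Md_A and L1Md_Gf subfamilies hold the copies that can still move, whereas L1Md_F, L1_Mus, L1_Mur, Lx and the L1M families are older, L1M being the oldest, and most of their copies are truncated or mutated and give RNA only as parts of other transcripts or from sequence that remains transcribed. Lamivudine is a nucleoside analog that blocks reverse transcriptase, a step after transcription, and the hippocampus is a brain region where L1 activity in neurons has been described.

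The counts were reads assigned to single L1 elements, without normalization, so that the tissue could not be checked against gene markers here. The TS libraries held between 186434 and 403378 L1 counts. TS-nt replicate 4 stood apart with the highest total and with counts on 74670 elements, where the other TS libraries had counts on 19915 to 61110. The table has 430083 elements. None of the 21 libraries had a count on 214696 of them, and 4238 passed the filter of the test (edgeR's filterByExpr). The labels of all non-treated mice begin with 20, as do those of 8 of the 13 TS-t mice. Of the other TS-t labels, 4 begin with 19 and 1 with 18. Among the WT-t hippocampus labels, only 3 of 17 begin with 20. Values within the label 20 are given below for elements and subfamilies where they moved most, since what the beginning of the label stands for was not stated.

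Positions were used here only for elements that the study lists, which were placed on GRCm38/mm10. Among 16 elements with such a position or positions, the first bases are shown for 2 of the mouse lineage whose sequence could be read from an annotated transcript, as examples of L1s that lie within other transcripts. They are written 5′ to 3′ on the strand of the element, each as the 150 bases at its 5′ end. L1_Mus3_dup17767 lies at chr7:59329352-59330039 on the minus strand, in the single-exon transcript A230103L15Rik and within an intron of the noncoding host gene Snhg14, both on the same strand (shown are chr7:59329890-59330039, 44.0% G or C). L1Md_F2_dup59906 lies at chr17:3111781-3112547 on the minus strand and overlaps an exon of the transcribed pseudogene Gm21926 on the same strand (shown are chr17:3112398-3112547, 40.7% G or C). Reads of such an element cannot be told apart from reads of the transcript that contains it.
L1_Mus3_dup17767: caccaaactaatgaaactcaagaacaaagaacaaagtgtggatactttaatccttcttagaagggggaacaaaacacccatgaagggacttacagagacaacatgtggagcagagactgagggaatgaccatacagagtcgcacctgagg
L1Md_F2_dup59906: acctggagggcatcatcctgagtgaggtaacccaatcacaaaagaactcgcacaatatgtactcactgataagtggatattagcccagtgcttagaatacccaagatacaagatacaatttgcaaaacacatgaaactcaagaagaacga

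The first question was whether total L1 RNA differed with treatment. The sum of L1 counts per library was between 223726 and 347160 in TS-t, with a median of 260220, and between 186434 and 403378 in TS-nt, with a median of 263184. The range of TS-t lay within that of TS-nt. The means were 277755 ± 38500 (SD, n = 13) and 266395 ± 66408 (SD, n = 8), a difference of 11360 counts that was smaller than the spread between libraries (two-sided exact permutation test, p = 0.629). This total also moves with sequencing depth, which was not known here for single libraries. After thinning every library to 186434 counts, the number of elements with a count was 35701 ± 8854 (SD, n = 13) in TS-t and 32211 ± 11187 (SD, n = 8) in TS-nt (exact permutation p = 0.435).

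L1s were then grouped by name, and so only roughly by age, into 11 classes of subfamilies. The share of each class in the L1 counts of a library was compared. Older Lx elements (Lx7 to Lx10) held 17.6% ± 0.637 (SD, n = 13) of L1 counts in TS-t and 17.3% ± 0.508 (SD, n = 8) in TS-nt (exact permutation p = 0.302). The L1Md class holds all copies that can still move, but also the older L1Md_F, L1Md_F2 and L1Md_F3. Its share was 11.6% ± 0.480 (SD, n = 13) in TS-t and 11.3% ± 0.633 (SD, n = 8) in TS-nt (exact permutation p = 0.222). L1ME, among the oldest, held 16.8% ± 2.46 (SD, n = 13) and 17.5% ± 2.31 (SD, n = 8) (exact permutation p = 0.503), with the largest SD of the 11 classes in percentage points of L1 counts. No class had an unadjusted p-value below 0.05, and after adjustment over the 11 classes all p-values were 0.654 or higher. Among TS-t mice with the label 20 alone, the smallest adjusted p-value was 0.703.

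At the level of single elements, edgeR's quasi-likelihood test called 0 of 4238 L1s (0% called) when p-values were adjusted by Benjamini-Hochberg and held to 0.1, the smallest being 0.372. Before adjustment, 138 L1s were below p = 0.05, 87 higher in TS-t (2.05% of those tested) and 51 lower (1.2%). No element tested had values that did not overlap between TS-t and TS-nt. The median log2 fold change of all elements was 0.04 and the median of its absolute value 0.27. The median standard error (SE) was 0.52, so that small changes of single elements were not detectable with an error of this size. Between mice of the same group, the common coefficient of variation was 0.622. Applied to these elements, DESeq2 called 1 L1 when all 4 groups were modelled (0.0236%) and 2 with only TS-t and TS-nt (0.0472%), all lower in TS-t. Without adjustment, 212 and 159 of the same 4238 L1s were below p = 0.05 in DESeq2.

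**Figure D1:**
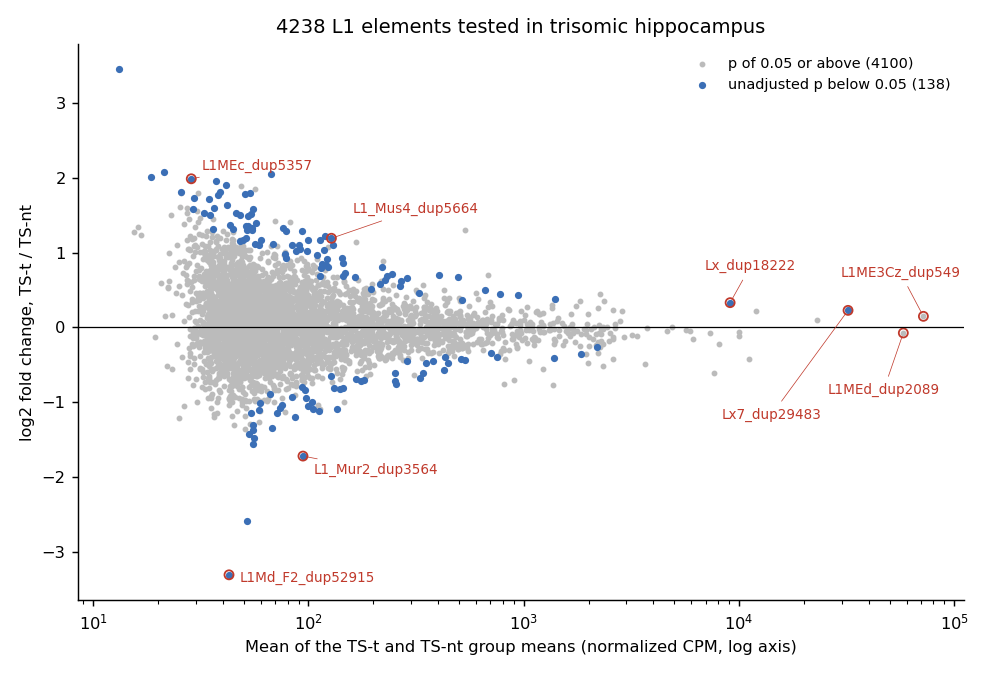
Log2 fold change of TS-t over TS-nt (vertical axis) against the mean of the group means in normalized CPM (horizontal log axis) for the 4238 L1 elements tested, one point each, with the 138 at an unadjusted p-value below 0.05 in blue and 8 elements of the text circled in red. The spread narrows as the level rises, and L1Md_F2_dup52915 and L1_Mur2_dup3564 lie at the lower edge at -3.31 and -1.72.

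L1_Mur2_dup3564, a copy of a rodent L1 subfamily, had the smallest p-value of all and was lower in TS-t. Its normalized CPM (counts per 1000000 counts on the elements tested, scaled with TMM factors) was between 0 and 106 in TS-t, with a median of 42.4, and between 96.9 and 254 in TS-nt, with a median of 140. Of the 13 TS-t libraries, 12 lay below the lowest TS-nt library, and the groups overlapped only by the TS-t library with 106 CPM. The log2 fold change was -1.72 (SE 0.43), or 3.30-fold lower, with an adjusted p-value of 0.372 in edgeR and of 0.0728 and 0.0676 in DESeq2 with 4 and 2 groups. As a single value, the difference of means had an exact permutation p = 9.83e-06 over all libraries (n = 13 and 8), and 0.000311 for treated mice with the label 20 (exact permutation, n = 8 and 8), neither adjusted over the elements tested. The counts behind it were low, 87 over the TS-t and 176 over the TS-nt libraries.

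The level of this element in TS-nt was also above that of WT mice. Mean CPM was 145 ± 49.0 (SD, n = 8) for TS-nt, 43.3 ± 29.3 (SD, n = 13) for TS-t, 70.3 ± 37.0 (SD, n = 8) for WT-nt and 84.1 ± 49.8 (SD, n = 17) for WT-t. In WT hippocampus the treatment gave a log2 fold change of 0.24 (SE 0.42). The interaction of treatment and genotype was -1.96 (SE 0.61, unadjusted p = 0.00185 in edgeR), with an adjusted p-value of 1.00 over all elements. The interaction contains the TS comparison by which the element was chosen. Neither it nor the level of TS-nt beside WT is independent of that choice. In the cortex of the TS mice the element had a log2 fold change of 0.12 (SE 0.62). Its levels there were 56.4 ± 41.2 CPM (SD, n = 13) in TS-t and 51.8 ± 28.2 CPM (SD, n = 9) in TS-nt.

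L1Md_F2_dup52915, a copy of one of the older L1Md subfamilies, followed. It had between 0 and 22.2 CPM in TS-t, with a median of 0 and no count in 7 of 13 libraries, and between 0 and 138 CPM in TS-nt, with a median of 72.9 and no count in 1 of 8. Apart from this single TS-nt library at 0, replicate 7, every TS-nt library lay above every TS-t library. The TS-t libraries held 14 counts in total and those of TS-nt 93. The log2 fold change was -3.31 (SE 0.84), with an adjusted p-value of 0.372 in edgeR, of 0.282 in DESeq2 with 4 groups and of 0.0159 with 2. DESeq2 with 2 groups used the elements that passed the filter over all 4 groups. With the filter on only the 2 groups, this element did not pass. The difference of means had an unadjusted exact permutation p = 8.35e-05 (n = 13 and 8). The means of WT-nt and WT-t, 28.6 ± 42.2 CPM (SD, n = 8) and 32.1 ± 40.3 CPM (SD, n = 17), lay between, and the interaction was -3.47 (SE 1.17, unadjusted p = 0.00403, adjusted 1.00 in edgeR). This element too was chosen by the TS comparison that the interaction contains. In cortex it had too few counts to be tested, with no count in 9 of 13 TS-t and 6 of 9 TS-nt libraries.

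The other 8 of the 10 elements with the smallest p-values among those lower in TS-t were L1M4b_dup678, Lx9_dup32769, L1MB7_dup37, L1MB7_dup6090, Lx8_dup14309, L1Md_F3_dup2700, Lx9_dup42197 and L1ME4c_dup72. L1M4b_dup678, an old element, had 151 to 628 CPM in TS-t, with a median of 309, and 355 to 631 CPM in TS-nt, with a median of 527. Of the TS-t libraries, 9 of 13 were below the lowest of TS-nt (log2 fold change -0.56, SE 0.18, unadjusted p = 0.00301, adjusted p = 1.00 in edgeR). L1MB7_dup6090 had 16.8 to 190 CPM in TS-t, with a median of 49.9, and 75.8 to 204 CPM in TS-nt, with a median of 133, and again 9 of 13 TS-t libraries were below all of TS-nt. Over the 10 elements, log2 fold changes ran from -0.56 to -3.31. All 10 had the lower mean in TS-t also within the label 20, where 5 had an unadjusted exact permutation p-value below 0.05, but these libraries were among those by which the 10 were chosen. For Lx8_dup14309 the mean of TS-t was 270 CPM over all libraries and 305 CPM within the label 20, beside 412 CPM in TS-nt, with exact permutation p-values of 0.0247 (n = 13 and 8) and 0.160 (n = 8 and 8). In WT hippocampus 3 of the 10 had a negative log2 fold change, and in TS cortex 6 of the 8 tested did. Over all elements tested, 49.1% had the same sign in TS and WT hippocampus. Of those tested in both tissues, 56.0% had the same sign in TS hippocampus and TS cortex.

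**Figure D2:**
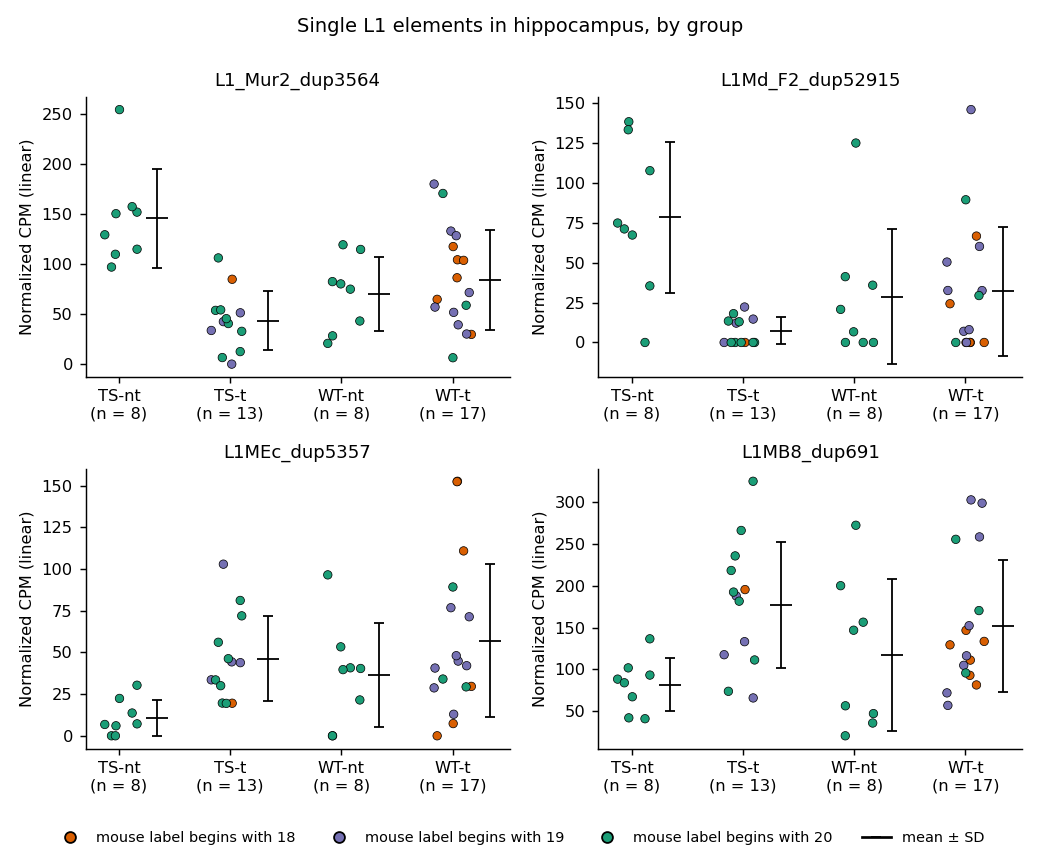
Normalized CPM (vertical linear axis) of 4 L1 elements in each hippocampus library of the TS-nt, TS-t, WT-nt and WT-t groups (8, 13, 8 and 17 libraries), one point per library, colored by the beginning of the mouse label, with the group mean ± SD beside the points. The group means of L1_Mur2_dup3564 and L1Md_F2_dup52915 are highest in TS-nt, and those of L1MEc_dup5357 and L1MB8_dup691 are lowest in TS-nt. In each panel, single WT libraries overlap both TS groups.

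Among L1s higher in TS-t, the smallest p-value was that of L1_Mus4_dup5664, of a mouse-lineage subfamily. It had 60.1 to 393 CPM in TS-t, with a median of 130, and 27.2 to 164 CPM in TS-nt, with a median of 72.5, and 6 of 13 TS-t libraries lay above all of TS-nt (log2 fold change 1.19, SE 0.34, unadjusted p = 0.00072, adjusted p = 1.00 in edgeR). L1ME3B_dup95, an old element, had 51.9 to 281 CPM in TS-t, with a median of 180, and 13.6 to 103 CPM in TS-nt, with a median of 76.9. Here 9 of 13 TS-t libraries exceeded the highest TS-nt library (log2 fold change 1.23, SE 0.39). L1ME3B_dup96, whose number follows that of L1ME3B_dup95 in the table and whose position was not used here, was on the same list with a log2 fold change of 0.81 (SE 0.27).

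L1MEc_dup5357 had 19.4 to 103 CPM in TS-t, with a median of 43.9, and 0 to 30.3 CPM in TS-nt, with a median of 6.98, and all 13 TS-t libraries were above the TS-nt median. It was the only one of the 10 for which this held, although it rested on 93 counts in TS-t and 14 in TS-nt (log2 fold change 1.99, SE 0.70). Median counts per library were 6 in TS-t and 1 in TS-nt, below the filter's minimum of 10 counts. The element therefore reached the test only with the help of WT libraries. Its TS-nt mean of 10.8 ± 10.8 CPM (SD, n = 8) was also below the 36.5 ± 31.2 CPM (SD, n = 8) of WT-nt. The element was chosen by a comparison that includes these TS-nt values. L1MB8_dup691 had 65.8 to 325 CPM in TS-t, with a median of 188, and 41.0 to 136 CPM in TS-nt, with a median of 86.1. Its difference had an unadjusted exact permutation p = 0.00341 over all libraries (n = 13 and 8) and 0.00233 within the label 20 (n = 8 and 8). For L1Md_A_dup13557, of a subfamily with copies that can move, TS-t had 37.4 to 378 CPM with a median of 118 and TS-nt 20.4 to 115 CPM with a median of 69.2. Within the label 20 its exact permutation p-value was 0.204 (n = 8 and 8), where it was 0.0376 over all libraries.

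The remaining elements of the 10 were Lx_dup18222, Lx6_dup5549, Lx2_dup12475 and HAL1M8_dup600. Log2 fold changes of the 10 were between 0.33 and 1.99 and their adjusted p-values were all 1.00 in edgeR. All 10 had the higher mean in TS-t within the label 20 as well, and 8 of them with an unadjusted exact permutation p-value below 0.05, again in libraries used to choose them. In WT hippocampus 5 of the 10 were higher in treated mice, 1 of them below p = 0.05 before adjustment. In TS cortex 8 of 10 had the same direction, none with an unadjusted p-value below 0.05. Over all elements, the shares with the same sign were 49.1% for WT hippocampus and 56.0% for TS cortex.

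Lx_dup18222 differed from the rest by its abundance. It had 7729 to 12948 CPM in TS-t, with a median of 9888, and 6752 to 10455 CPM in TS-nt, with a median of 7732, and 5 of 13 TS-t libraries were above all of TS-nt. The log2 fold change was 0.33 (SE 0.11), or 1.26-fold higher, with an unadjusted p-value of 0.00259 (adjusted 1.00) in edgeR. WT hippocampus had nearly the same value, 0.27 (SE 0.10, unadjusted p = 0.0107 in edgeR), and the interaction was 0.07 (SE 0.15). The 5 TS-t mice with labels beginning with 18 or 19 had 10144 to 12472 CPM, in the upper part of the TS-t range, and with the 8 of label 20 alone the exact permutation p-value was 0.0768 (n = 8 and 8), where it was 0.00785 over all libraries. Only 3 of the 17 WT-t mice have a label that begins with 20, so that the WT comparison also differs by label. How far the label contributes to the difference in TS or WT hippocampus was not tested.

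Of the most abundant elements of the TS hippocampus, 4 are described, L1ME3Cz_dup549, L1MEd_dup2089, Lx7_dup29483 and L1MEi_dup274, and 3 of them belong to old L1M families. Lx7_dup29483 had 24523 to 50155 CPM in TS-t, with a median of 33536, and 25747 to 37471 CPM in TS-nt, with a median of 28973 (log2 fold change 0.23, SE 0.10, unadjusted p = 0.0202 in edgeR). As for Lx_dup18222, the value in WT hippocampus was close, 0.21 (SE 0.09), and the TS-t mice with labels beginning with 18 or 19 had a mean of 37738 CPM and those with 20 a mean of 32688 CPM. L1ME3Cz_dup549 had a log2 fold change of 0.15 (SE 0.20) and L1MEi_dup274 of 0.10 (SE 0.19). Here the labels stood further apart, with means for L1ME3Cz_dup549 of 96368 CPM in TS-t mice with labels beginning with 18 or 19, 62543 CPM in those with 20 and 68117 CPM in TS-nt. For L1MEi_dup274 they were 30839, 19667 and 22293 CPM, so that within the label 20 both elements had the lower mean in TS-t. L1MEd_dup2089 had 849 CPM in TS-t replicate 10, from 131 counts, where the other 20 libraries had between 31970 and 111966 CPM. Its log2 fold change was -0.07 (SE 0.34), with means of 76679 CPM in TS-t mice with labels beginning with 18 or 19, 43859 CPM in those with 20 and 59422 CPM in TS-nt.

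Counts were next summed over the elements of each subfamily, which lowered the SE to a median of 0.08. The quasi-likelihood test called 0 of 132 subfamilies (0% called), with a smallest adjusted p-value of 0.143, and 13 had an unadjusted p-value below 0.05, 7 higher in TS-t (5.3%) and 6 lower (4.55%). DESeq2 with the 4 groups called 2, Lx (adjusted p = 0.0234) and L1_Mur2 (adjusted p = 0.0486), both higher in TS-t, and so did edgeR with DESeq2's size factors (0.0532 and 0.0844). The 5 with the smallest p-values among those higher in TS-t were Lx, L1_Mur2, MusHAL1, Lx3A and L1_Mur1, all of the mouse and rodent lineages. Among those lower they were L1MDa, L1MD, L1MC5a, L1M2b and L1M4a2, all old families. The other 2 that were higher at an unadjusted p-value below 0.05 were old families too, L1MCb (log2 fold change 0.30, SE 0.13) and L1MC2 (0.16, SE 0.07), and no relation of direction to age was tested.

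Lx held 2.26 to 2.58% of L1 counts in TS-t, with a median of 2.42%, and 2.03 to 2.37% in TS-nt, with a median of 2.28%. Of the 13 TS-t libraries, 10 were above the highest of TS-nt, and 4 of the 8 TS-nt libraries were below the lowest of TS-t. The difference was small, a log2 fold change of 0.09 (SE 0.02) or 1.06-fold (95% interval 1.03 to 1.10), and the shares gave an unadjusted exact permutation p = 0.00217 (n = 13 and 8) and 0.00357 within the label 20 (n = 8 and 8). A single element, Lx_dup18222, held 21.8% of the Lx counts. Without it, Lx held 1.87% ± 0.115 (SD, n = 13) of L1 counts in TS-t and 1.79% ± 0.144 (SD, n = 8) in TS-nt (exact permutation p = 0.175). Within the label 20, the TS-t mean without it was 1.91% (exact permutation p = 0.0796, n = 8 and 8), a difference of 0.124 percentage points, while that of Lx_dup18222 alone was 0.0715 percentage points (exact permutation p = 0.0794). Over all libraries these differences were 0.0800 and 0.0893 percentage points. Without Lx_dup18222 the log2 fold change of Lx was 0.04 (SE 0.03, unadjusted p = 0.139 in edgeR). Of the 101 Lx elements tested singly, 62 had a positive log2 fold change (median 0.12), beside 54.7% of all elements tested, and 1 was higher and 2 were lower at an unadjusted p-value below 0.05. The log2 fold change of Lx in WT hippocampus was 0.01 (SE 0.02) and in TS cortex 0.09 (SE 0.06).

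**Figure D3:**
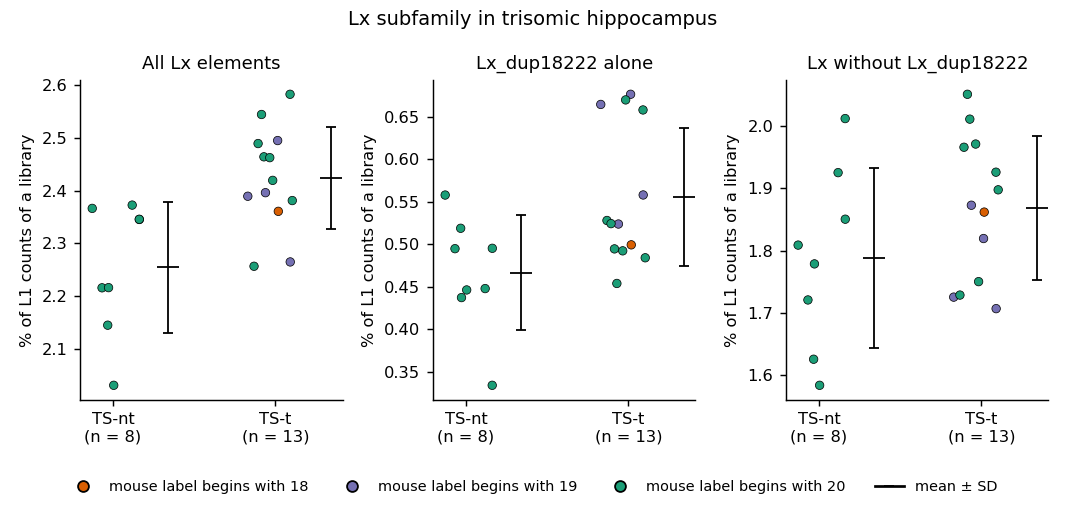
Share of L1 counts per library (vertical axis, %, not starting at 0) of all Lx elements, of Lx_dup18222 alone and of Lx without Lx_dup18222 in the 8 TS-nt and 13 TS-t hippocampus libraries, one point per library, colored by the beginning of the mouse label, with mean ± SD. In the first panel 10 of 13 TS-t libraries lie above all of TS-nt, and in the last panel the groups overlap more.

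L1_Mur2 held 0.673 to 0.863% of L1 counts in TS-t, with a median of 0.777%, and 0.604 to 0.873% in TS-nt, with a median of 0.691%. The highest library of all was a TS-nt library and 3 TS-nt libraries lay below all of TS-t (log2 fold change 0.12, SE 0.04). Its direction was opposite to that of its own copy L1_Mur2_dup3564, and 27 of its 37 elements tested had a positive log2 fold change. Without its most abundant element, L1_Mur2_dup16221, the log2 fold change was 0.12 (SE 0.04), so that it did not rest on that copy. MusHAL1, a mouse-lineage element that lacks part of L1, had a log2 fold change of 0.17 (SE 0.07), Lx3A of 0.12 (SE 0.05) and L1_Mur1 of 0.18 (SE 0.08). Within the label 20, the exact permutation p-value of the share rose from 0.0372 to 0.234 for MusHAL1 and fell from 0.0211 to 0.00404 for Lx3A (n = 13 and 8, then n = 8 and 8).

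Of the subfamilies lower in TS-t, L1MDa had a log2 fold change of -0.13 (SE 0.05) and L1MC5a of -0.12 (SE 0.05). L1MD held 0.544 to 0.913% of L1 counts in TS-t, with a median of 0.698%, and 0.725 to 0.902% in TS-nt, with a median of 0.792%, and 8 of 13 TS-t libraries were below all of TS-nt (log2 fold change -0.16, SE 0.07). Within the label 20 the shares of L1MD gave an exact permutation p-value of 0.589 (n = 8 and 8), where it was 0.0843 over all libraries. L1M2b (-0.28, SE 0.13 on the log2 scale) was in effect 1 element, since L1M2b_dup14 held 99.1% of its counts. The TS-t share of L1M2b was 0.120% over all libraries and 0.133% within the label 20, beside 0.144% in TS-nt (exact permutation p = 0.128 with n = 13 and 8, and 0.588 with n = 8 and 8). L1M4a2 had a log2 fold change of -0.26 (SE 0.12).

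The subfamilies with copies that can still move were measured more closely than single elements and did not differ beyond their error. The log2 fold change was 0.01 (SE 0.04) for L1Md_T, 0.04 (SE 0.04) for L1Md_A and 0.02 (SE 0.10) for L1Md_Gf. For L1Md_T, with 2.08 to 2.59% of L1 counts in TS-t and 1.91 to 2.74% in TS-nt, the 95% interval of the fold was 0.945 to 1.07. For L1Md_A it was 0.973 to 1.09. The older members of the group had log2 fold changes of 0.10 (L1Md_F, SE 0.07), 0.03 (L1Md_F2, SE 0.02) and -0.05 (L1Md_F3, SE 0.04). No unadjusted p-value of the 6 was below 0.05.

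**Figure D4:**
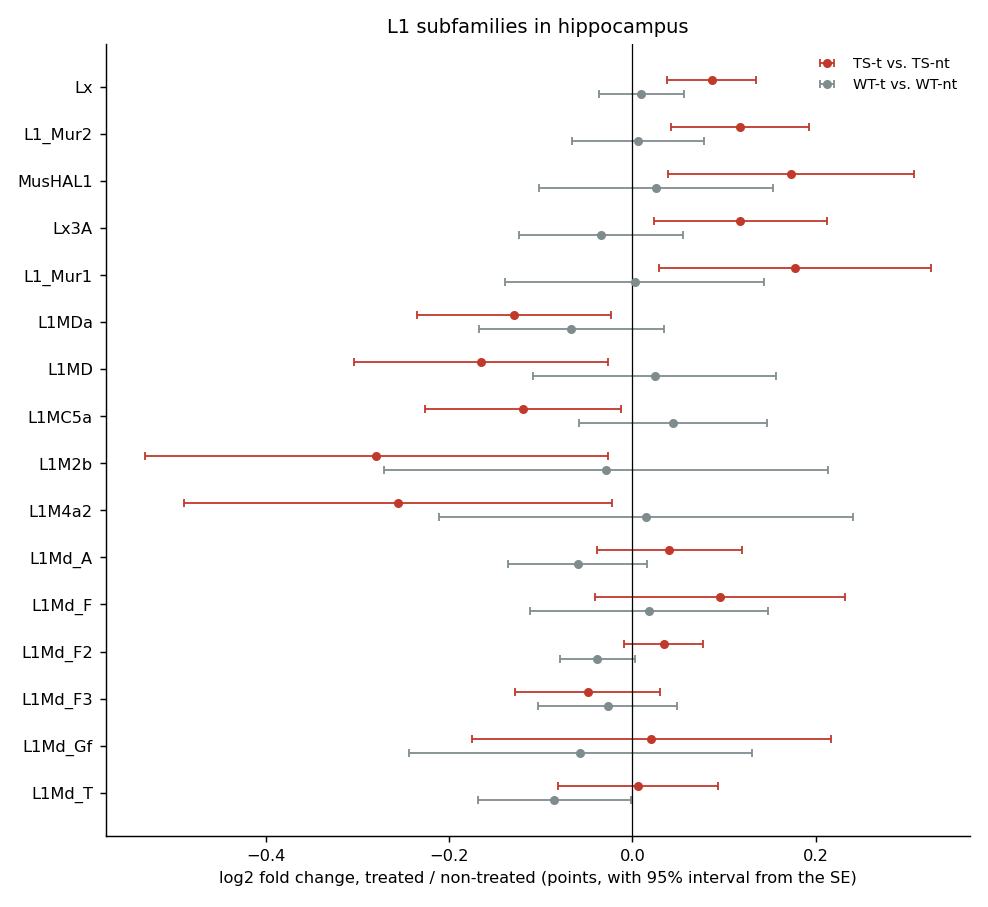
Log2 fold change of treated over non-treated mice (horizontal axis) with its 95% interval for 16 L1 subfamilies in hippocampus, in TS mice (red) and WT mice (gray). The 5 subfamilies higher and the 5 lower in TS-t with the smallest p-values were chosen by the red values, and the 6 L1Md subfamilies lie between -0.05 and 0.10 in TS mice.

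By class, the elements at an unadjusted p-value below 0.05 were spread over the named groups of L1. Over all elements tested, 2.05% were higher and 1.2% lower. Of 707 elements tested in the L1Md class, which includes the older L1Md_F, L1Md_F2 and L1Md_F3, 15 were higher (2.12%) and 9 lower (1.27%) in TS-t. For the mouse-lineage L1_Mus and L1_Mm they were 12 and 7 of 578, for younger Lx 13 and 5 of 660, for older Lx 13 and 10 of 756, and for L1ME 10 and 6 of 285. Rodent L1_Mur, L1VL and L1_Rod had 4 and 1 of 230, HAL1 2 and 0 of 38, L1MA and L1MB 6 and 6 of 378, L1MC and L1MD 4 and 6 of 327, and other L1M 8 and 1 of 276. The median log2 fold change was 0.12 in HAL1, 0.09 in the mouse-lineage and the younger Lx elements, 0.04 in L1Md, -0.01 in L1MA and L1MB and -0.02 in L1MC and L1MD, beside 0.04 over all elements tested. These medians are small beside the SE of single elements and are given as a description.

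The study's hippocampus lists were chosen on comparisons that share these TS-nt or TS-t libraries, so that the values of their elements here are not independent evidence of a direction. Of 16 elements, 15 passed the filter, and 10 had the higher and 5 the lower level in TS-t, with a median log2 fold change of 0.39 beside 0.04 for all elements. None was called by edgeR or DESeq2. Before adjustment, 4 were below p = 0.05, of which 3 were higher, L1Md_F_dup3732, L1Md_F_dup1709 and Lx7_dup11750, and 1 lower, L1MEg2_dup44, beside 2.05% higher and 1.2% lower over all elements tested. Lx8_dup1602 did not pass the filter, with 35 counts in TS-t and 36 in TS-nt.

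**Figure D5:**
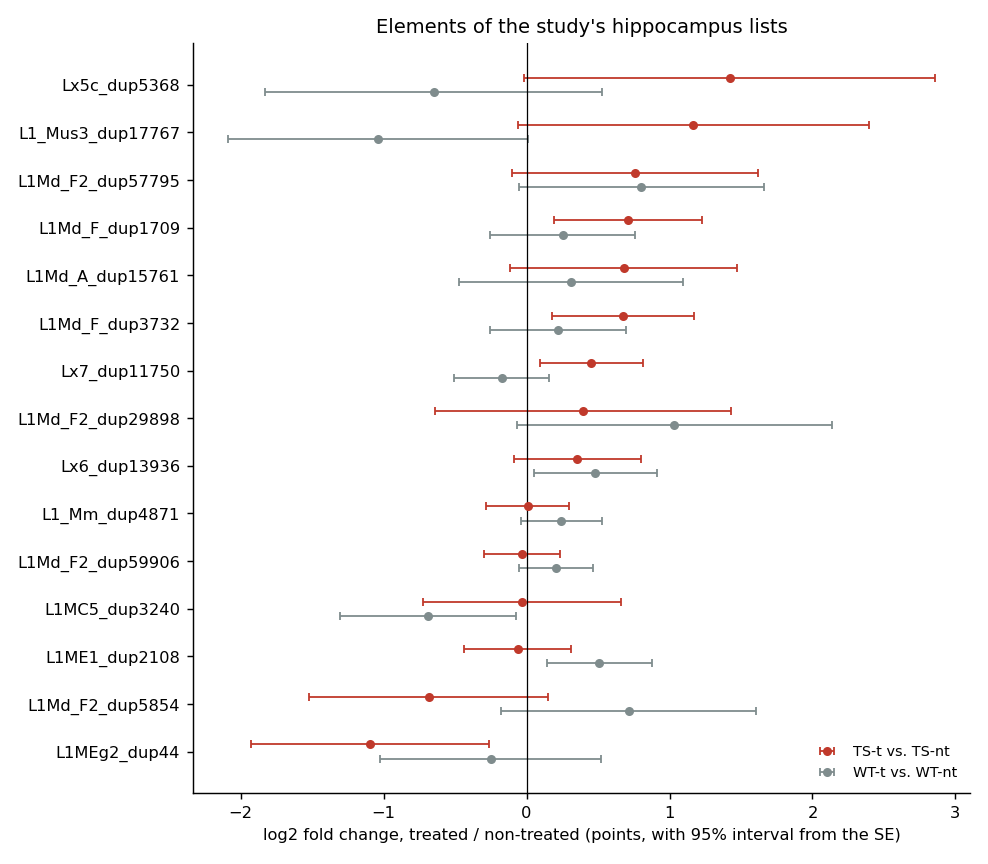
Log2 fold change of treated over non-treated mice (horizontal axis) with its 95% interval for 15 elements of the study's hippocampus lists that were tested, in TS mice (red) and WT mice (gray), ordered by the value in TS mice. L1MEg2_dup44 is the lowest in TS mice at -1.10 and Lx5c_dup5368 the highest at 1.42, with an interval that includes 0.

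Among the listed elements with the widest error, Lx5c_dup5368, on chromosome 5 (104640220 to 104641102) outside annotated genes, had 0 to 255 CPM in TS-t, with a median of 104, and 0 to 101 CPM in TS-nt, with a median of 10.7 and no count in 4 of 8 libraries (log2 fold change 1.42, SE 0.73, unadjusted p = 0.0594 in edgeR). L1_Mus3_dup17767, shown above, had 0 to 230 CPM in TS-t, with a median of 38.9, and 0 to 80.9 CPM in TS-nt, with a median of 24.9 (log2 fold change 1.17, SE 0.63), and -1.04 (SE 0.53) in WT hippocampus. For this element the interaction was 2.20 (SE 0.83, unadjusted p = 0.00924, adjusted 1.00 in edgeR). Lx7_dup11750, on chromosome 5 (107390722 to 107393003), overlaps an exon of the antisense transcript Gm42902. It had 425 to 1682 CPM in TS-t, with a median of 923, and 503 to 732 CPM in TS-nt, with a median of 672. The TS-t range was the wider on both sides, with 9 libraries above and 2 below all of TS-nt (log2 fold change 0.45, SE 0.18). L1Md_F2_dup5854, on chromosome 2 (45547199 to 45547811) outside annotated genes, had a log2 fold change of -0.69 (SE 0.43) in TS and 0.72 (SE 0.46) in WT mice.

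L1Md_F_dup1709 (99525609 to 99526446) and L1Md_F2_dup29898 (99526444 to 99526923) lie next to each other on chromosome 8 in an intron of the lincRNA A330008L17Rik, on its strand. The former had 127 to 957 CPM in TS-t, with a median of 503, and 142 to 402 CPM in TS-nt, with a median of 341 (log2 fold change 0.71, SE 0.26, unadjusted p = 0.00919 in edgeR). Its mean was 649 CPM in TS-t mice with labels beginning with 18 or 19, 406 CPM in those with 20 and 305 CPM in TS-nt, and the exact permutation p-value was 0.0320 over all libraries (n = 13 and 8) and 0.200 within the label 20 (n = 8 and 8). Its neighbor, with 227 counts in TS-t and 106 in TS-nt, had a log2 fold change of 0.39 (SE 0.53). L1Md_F_dup3732, on chromosome 16 (98015457 to 98016275), lies in A630089N07Rik and partly in an exon of B230307C23Rik on the opposite strand. It had 325 to 1042 CPM in TS-t, with a median of 583, and 202 to 548 CPM in TS-nt, with a median of 380, and 8 of 13 TS-t libraries were above all of TS-nt (log2 fold change 0.68, SE 0.25). L1MEg2_dup44, on chromosome 7 (89853282 to 89853618), lies within an exon of Me3, a mitochondrial malic enzyme, on the opposite strand, and had 18.7 to 191 CPM in TS-t, with a median of 90.7, and 54.0 to 493 CPM in TS-nt, with a median of 156 (log2 fold change -1.10, SE 0.42). L1Md_F2_dup59906 and L1_Mm_dup4871 had nearly equal levels, with log2 fold changes of -0.03 (SE 0.13) and 0.01 (SE 0.15).

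Whether the effect of treatment differed between TS and WT hippocampus was tested with the interaction term. The quasi-likelihood test called 0 of 4238 L1s, while 132 were below p = 0.05 before adjustment (3.11%). DESeq2 called 0, with 172 of the 4238 below p = 0.05 before adjustment. TS and WT comparisons share no library, and across the 4238 elements their log2 fold changes had a Pearson correlation of -0.02, given as a description. In the cortex of the TS mice, 0 of 5416 L1s were called by edgeR, while 49 were below p = 0.05 before adjustment (0.905%). There DESeq2 called 0, with 125 of the 5416 below p = 0.05 before adjustment. Across the 3722 elements tested in both tissues, which came from the same mice apart from 1 TS-nt mouse of the cortex, the correlation of log2 fold changes was 0.17. Of the 20 elements named above by their p-values, 18 were tested in cortex, and their smallest unadjusted p-value there was 0.141.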

How the data were processed

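L1 counts of the 46 hippocampus and 48 cortex libraries were analyzed as deposited. The authors prepared stranded total RNA libraries, removed ribosomal RNA, used Trimmomatic 0.38 for trimming and HISAT2 2.1.0 for alignment to GRCm38/mm10, where a read could keep 5 alignments, and counted reads on RepeatMasker L1 elements with Telescope, which places a multimapping read on its most probable copy (versions per the submitters' processing notes). The deposited values are whole-number counts without normalization. Copies that are nearly identical may exchange counts, and reads of a transcript that contains an element are counted on it. StringTie 2.1.3b was named for genes, which were not used here. No columns were left over, and no pair of libraries held identical counts. Each library was taken as 1 mouse, as its label names 1 animal. The study's methods also mention that samples were pooled within a condition before RNA quality was measured, and if sequenced libraries were pools, p-values measure the spread between pools.

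The default filterByExpr filter was used (a minimum of 10 counts, adjusted to depth, in a number of libraries set by the smallest group, and of 15 over all). TMM factors were then computed, and groups were compared by the quasi-likelihood test of edgeR (edgeR 4.0.16, limma 3.58.1, R 4.3.3; glmQLFit with robust fitting), with the 4 hippocampus groups in the model. A subfamily is the name before _dup, and its counts were summed. The SE was derived from the log2 fold change and the F statistic, and 95% intervals are 1.96 SE on each side. The threshold was an adjusted p-value of 0.1. Permutation tests were two-sided and exact, over 203490 splits of 13 and 8 libraries or 12870 of 8 and 8 (Python 3.11.15, numpy 2.4.6, pandas 2.3.3). DESeq2 1.42.0, other scalings, filters, thresholds and samples were alternatives. The edgeR test was also run on simulated counts with known changes, and the outcome is not given here. Genes at listed positions come from GENCODE M21, as do the sequences.

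Elements named were, by a rule, the 10 with the smallest p-values in each direction, those called by DESeq2, those on the study's hippocampus lists and the 5 most abundant, of which 1 is not reported here. Named subfamilies were the 5 with the smallest p-values in each direction and 6 of L1Md. Members, lists and tests were chosen with earlier results of these data known.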

Additional observations from a re-analysis of the deposited data

Results flagged for a closer look

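In 68 sets of the 8 TS-nt libraries that were examined (elements, subfamilies and classes named, and L1 totals), 10 had a highest library far from the others, by a gap to the next library that exceeded Dixon's 95% critical value for 8 samples. For normally distributed values, chance gives about 1 in 20 such sets. Whether this rate holds for low counts such as these was not tested, and the sets are not independent. The library labelled TS-nt replicate 4, with the largest L1 total, held 4 of the 10. It had 80.9 CPM of L1_Mus3_dup17767 (next 35.8), and its share of L1 counts was 0.506% for Lx3A (next 0.444%), 0.336% for L1_Mur1 (next 0.264%) and 4.93% for the class of rodent L1_Mur, L1VL and L1_Rod (next 4.17%). In each of these the mean of TS-t was the higher, so that this library lay on the side of TS-t.

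TS-nt replicate 1 had 254 CPM of L1_Mur2_dup3564 (next 157) and 493 CPM of L1MEg2_dup44 (next 207), and TS-nt replicate 2 had 373 CPM of L1MB7_dup37 (next 141), all on the side away from TS-t. TS-nt replicate 7 had 157 CPM of Lx6_dup5549 (next 70.4). TS-nt replicate 8 had 0.235% of L1M2b (next 0.154%) and 7.68% of the class of other L1M (next 7.22%). Groups of 13 were not examined in this way, and for no element tested did the treatment effect differ between TS and WT hippocampus after adjustment.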

How the results depend on the processing

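No element, interaction or cortex element was called with DESeq2's size factors or with treated mice of the label 20, nor was an element called with library totals without TMM, with only the 2 groups compared (where L1Md_F2_dup52915 did not pass the filter), at an adjusted p-value below 0.05, or without any 1 of the 21 libraries (0 to 0 calls). DESeq2 called 1 element with 4 groups and 2 with 2 groups. An unadjusted p-value below 0.05 in edgeR together with a log2 fold change of 1.5 or more in size gave 27 of the 4238 elements tested. Of these, 23 were higher and 4 lower in TS-t, beside 87 higher and 51 lower by the p-value alone. For the interaction, the label 20 left only 3 WT-t libraries. Weaker filters changed the count most. edgeR called 16879 elements with at least 10 counts in total (11774 higher, 5105 lower) and 17999 without a filter (6605 higher, 11394 lower). Only 23 and 5 of them were among the elements tested with the main filter. Their shares of all elements tested under the weaker filters are not given here, so neither the counts nor their directions are read as a result. The elements called had counts in a median of 2 of the 21 TS libraries, where the elements tested above had counts in a median of 20. Of those called, 95.4% and 98.6% had no count in one of the groups. The fitted quasi-dispersion had a median of 0.434 and 0.241, where it was 1.07 with the main filter, and DESeq2 on the elements with at least 10 counts, added after the data were seen, called 0 (1375 at an unadjusted p-value below 0.05).

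Subfamilies called were 2 with DESeq2 and 2 with its size factors in edgeR. Leaving out each library gave 0 to 2 calls: Lx without TS-t replicate 5 or 10 or TS-nt replicate 2, 3 or 7, Lx and L1_Mur2 without TS-t replicate 9, and L1_Mur2 and MusHAL1 without TS-nt replicate 4. Other alternatives called 0. No class was called under any alternative (0 to 0 without single libraries). The difference of L1 totals was between -63.3 counts, without TS-nt replicate 8, and 30929 counts, without TS-nt replicate 4. Without single libraries the log2 fold change was -1.90 to -1.57 for L1_Mur2_dup3564, -3.54 to -3.15 for L1Md_F2_dup52915, 0.07 to 0.11 for Lx and 0.09 to 0.15 for L1_Mur2. With treated mice of the label 20 the sign turned for L1MC5_dup3240 (0.33), L1ME3Cz_dup549 (-0.12), L1MEi_dup274 (-0.18), L1Md_F2_dup59906 (0.0035), L1_Mm_dup4871 (-0.17) and the subfamilies L1Md_Gf (-0.068) and L1Md_T (-0.019), none of them called. The causes were not tested. No paired analysis was possible because each mouse had 1 treatment and the replicate numbers do not link mice between groups.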
